A study of Homo sapiens with 4 samples.

Results

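The genes described here encode parts of the route by which a cell reads interferon gamma (IFNγ): the receptor chains IFNGR1 and IFNGR2, the Janus kinases JAK1, JAK2 and TYK2, the transcription factors STAT2, STAT3 and STAT6, and the adaptor SH2B3. They were taken by gene symbol, from a choice made with earlier results of these data known, and all 9 had a row among the 37515 Ensembl genes of the count table. RNA-seq reads were counted in 4 libraries of the human line Caco-2, which derives from a colorectal carcinoma and serves as a model of intestinal epithelium. Caco-2 cells grew on transwell filters, and their basal side received IFNγ at 60 ng/ml for 3 h in 2 libraries, while the other 2 were unstimulated controls, given medium and labelled with time 0. All 4 libraries carry the mark WT or wt in their titles. Because the controls are labelled 0 h and not 3 h, the effect of IFNγ and that of the elapsed 3 h cannot be told apart.

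IFNγ binds IFNGR1, the ligand-binding chain, which pairs with IFNGR2, the signal-transducing chain. JAK1 sits on IFNGR1 and JAK2 on IFNGR2. Once the chains are brought together the kinases phosphorylate each other and the receptor, STAT proteins dock and are phosphorylated in turn, and a STAT dimer enters the nucleus and binds the IFNγ-activated site (GAS). TYK2 and STAT2 belong to the neighboring type I interferon pathway, STAT3 is the main STAT of the IL-6 family, STAT6 is that of IL-4 and IL-13, and SH2B3, also called LNK, is an adaptor that restrains JAK2 signaling in blood cells. In intestinal epithelium, IFNγ from activated T cells acts through this route.

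After 3 h, the 2 IFNγ libraries held more STAT3, SH2B3 and IFNGR1 transcripts and fewer IFNGR2 transcripts than the unstimulated libraries. STAT3 rose 2.20-fold, SH2B3 2.31-fold and IFNGR1 1.71-fold, and IFNGR2 fell to 0.701 of its unstimulated level. JAK1, JAK2, TYK2, STAT2 and STAT6 did not pass the test. These folds come from edgeR's quasi-likelihood test on the counts. A gene passed where its p-value, adjusted by Benjamini-Hochberg over all tested genes, was under 0.05, and it was called differentially expressed where its absolute log2 fold change was also above 1. All 9 genes were among the 14820 genes that passed the filter on low counts. Of the 9 genes 4 passed the adjusted p-value, 3 higher and 1 lower, against 20.0% of all tested genes in either direction, 9.02% higher and 11.0% lower. The 2 called genes, STAT3 and SH2B3, were both higher, against 2.88% of all tested genes called higher, 4.40% called lower and 7.28% called in either direction. This background depended on the processing. Removing the trend of GC content and length changed the genes past the adjusted p-value from 1337 higher and 1626 lower to 1397 higher and 970 lower, and the called genes from 427 higher and 652 lower to 423 higher and 319 lower. The 9 genes had a median log2 fold change of 0.36, against -0.01 for all tested genes. The median of the absolute log2 fold changes was 0.47 for the 9 genes and 0.34 for all tested genes. In bulk RNA a lower level in each cell and fewer cells carrying the transcript cannot be told apart.

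Each library held between 7171455 and 10365346 counts, and replicate 1 was the deeper in both conditions. As a check of the labels, 12 known IFNγ target genes were read first, of which 11 were matched to a row and 10 were tested. All 10 lay higher in both IFNγ libraries than in both controls, as did 31.6% of all tested genes. Called higher were 9 of them, against 2.88% of all tested genes. IRF1, a transcription factor induced by IFNγ, changed most among those with at least 10 counts in every library, from 19.2 and 20.1 to 1197 and 1082 CPM, the count relative to the library total as scaled by the TMM method. All 10 markers of intestinal epithelium had at least 10 counts in every library, and their summed level was 6179 to 6809 CPM in the unstimulated and 7348 to 7769 CPM in the IFNγ libraries. Of 6 leukocyte markers 2 had at least 10 counts in every library, and their summed level was 5.92 to 7.13 CPM in the unstimulated and 8.92 to 12.0 CPM in the IFNγ libraries. The 3 fibroblast markers summed to 107.7 to 202.8 CPM and 137.7 to 179.9 CPM, mostly from COL1A1, and the endothelial markers (2 of the 3 had a row) to 1.26 to 1.84 CPM and 1.84 to 2.31 CPM. None of these markers with a row was at 0 in every library, and their part in the results was not tested.

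The 4 genes that passed the test lie on different chromosomes, and the sequences in front of their transcription starts are shown because the GAS, the element that a STAT dimer recognizes, is searched for there. Each is the 250 bases before a RefSeq start site of build GRCh38.p14, read 5′ to 3′ on the strand of the gene, with the letters TTC and GAA, the arms of the GAS, in capitals. Where RefSeq gave several starts the one farthest upstream was taken.
STAT3 (chr17:42388443-42388692, minus strand): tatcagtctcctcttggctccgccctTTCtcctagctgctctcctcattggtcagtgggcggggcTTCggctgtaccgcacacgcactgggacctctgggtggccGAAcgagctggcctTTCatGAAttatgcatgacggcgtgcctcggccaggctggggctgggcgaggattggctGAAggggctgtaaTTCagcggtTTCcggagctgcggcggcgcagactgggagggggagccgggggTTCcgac
SH2B3 (chr12:111405673-111405922, plus strand): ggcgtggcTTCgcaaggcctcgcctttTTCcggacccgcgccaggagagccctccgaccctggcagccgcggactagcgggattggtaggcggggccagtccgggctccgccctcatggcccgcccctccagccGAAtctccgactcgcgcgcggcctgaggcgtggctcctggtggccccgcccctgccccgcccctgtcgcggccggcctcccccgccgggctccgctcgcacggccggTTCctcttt
IFNGR1 (chr6:137219386-137219635, minus strand): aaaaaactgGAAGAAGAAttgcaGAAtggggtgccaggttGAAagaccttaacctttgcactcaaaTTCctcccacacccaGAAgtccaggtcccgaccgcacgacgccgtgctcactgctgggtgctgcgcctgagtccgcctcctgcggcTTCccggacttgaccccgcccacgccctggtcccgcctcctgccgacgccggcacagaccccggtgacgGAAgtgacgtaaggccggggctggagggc
IFNGR2 (chr21:33403163-33403412, plus strand): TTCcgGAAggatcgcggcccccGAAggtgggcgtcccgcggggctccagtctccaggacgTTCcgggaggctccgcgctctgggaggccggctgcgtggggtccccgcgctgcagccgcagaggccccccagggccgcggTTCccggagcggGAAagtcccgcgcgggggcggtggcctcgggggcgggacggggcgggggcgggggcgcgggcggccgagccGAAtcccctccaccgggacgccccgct
The GAS was searched for as TTCNNNGAA and the interferon-stimulated response element (ISRE) as 2 copies of GAAA with any 2 bases between them, on both strands, in windows of 250 bases before to 50 after each start. No GAS and no ISRE was found in any of the 16 windows of the 9 genes. Among all 35116 RefSeq windows 7.66% held a GAS and 3.57% an ISRE. In the label check genes, 3 of the 8 with a window held a GAS, IRF1 (TTCCCCGAA), TAP1 (TTCTGGGAA) and ICAM1 (TTCCGGGAA). An ISRE was also found in 3 of these 8, TAP1, GBP1 and SOCS1. In the STAT3 and IFNGR2 sequences shown, the arms TTC and GAA stand 2 bases apart once, a spacing (TTCNNGAA) found in 7.74% of all windows. A spacing of 4 bases (found in 6.44% of all windows) had 0 matches in the 4 sequences, and both spacings were looked at after the sequences had been seen. These matches are letters only, and a site outside the windows was not searched for.

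The receptor chains moved in opposite directions. IFNGR1 (ENSG00000027697, chromosome 6 of GRCh37, 137518620 to 137540586, minus strand), the chain that holds IFNγ, was counted 964 and 841 times in the controls, against 1811 and 1366 times after IFNγ, or 93.5 and 117 CPM against 176 and 186 CPM. Both IFNγ libraries were above both unstimulated ones, and the lower of the IFNγ pair stood well clear of the higher control. The means were 105 ± 17.0 CPM (SD, n = 2) and 181 ± 7.30 CPM (SD, n = 2), a log2 fold change of 0.78 (standard error 0.14, edgeR adjusted p = 0.00938). IFNGR1 is thus past the test and under the fold threshold. Across the tested genes the log2 fold change rose with GC content (Spearman rho = 0.431 over 14518 genes, which share the same 4 libraries). IFNGR1 has a GC content of 40.2%, against a median of 47.9%, and its log2 fold change became 1.06 (edgeR adjusted p = 0.00107) once each library was freed of its trend with GC content and length, past the fold threshold.

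IFNGR2 (ENSG00000159128, chromosome 21, 34775719 to 34851655, plus strand), the partner chain that recruits JAK2, had 609 and 492 counts before and 440 and 345 counts after IFNγ. On the CPM scale these were 59.1 and 68.7 against 42.7 and 46.9, so both stimulated libraries lay below both controls, as for 30.8% of all tested genes. The log2 fold change was -0.51 (standard error 0.14, edgeR adjusted p = 0.0398), close to the threshold. The fall did not pass without replicate 2 of the unstimulated libraries (log2 fold change -0.39, edgeR adjusted p = 0.176) or without replicate 1 of the IFNγ libraries (-0.45, adjusted p = 0.112). Of the exonic bases of IFNGR2, 15.0% are shared with TMEM50B on the opposite strand, and the strand setting of the counting is not given in the sources used here.

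Within each library the ratio of IFNGR1 to IFNGR2 reads needs no scaling between libraries. It does keep any trend with GC content, which was 40.2% for IFNGR1 and 50% for IFNGR2. The ratio was 1.58 and 1.71 in the unstimulated libraries and 4.12 and 3.96 after IFNγ. The mean ratio was 1.65 ± 0.0894 (SD, n = 2) before and 4.04 ± 0.111 (SD, n = 2) after, a change of 1.30 on the log2 scale. The exact permutation test over the 4 libraries gave p = 0.333 (two-sided), the smallest value that 2 against 2 libraries allow. The gap between the conditions was larger than the spread between libraries of one condition.

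**Figure D1:**
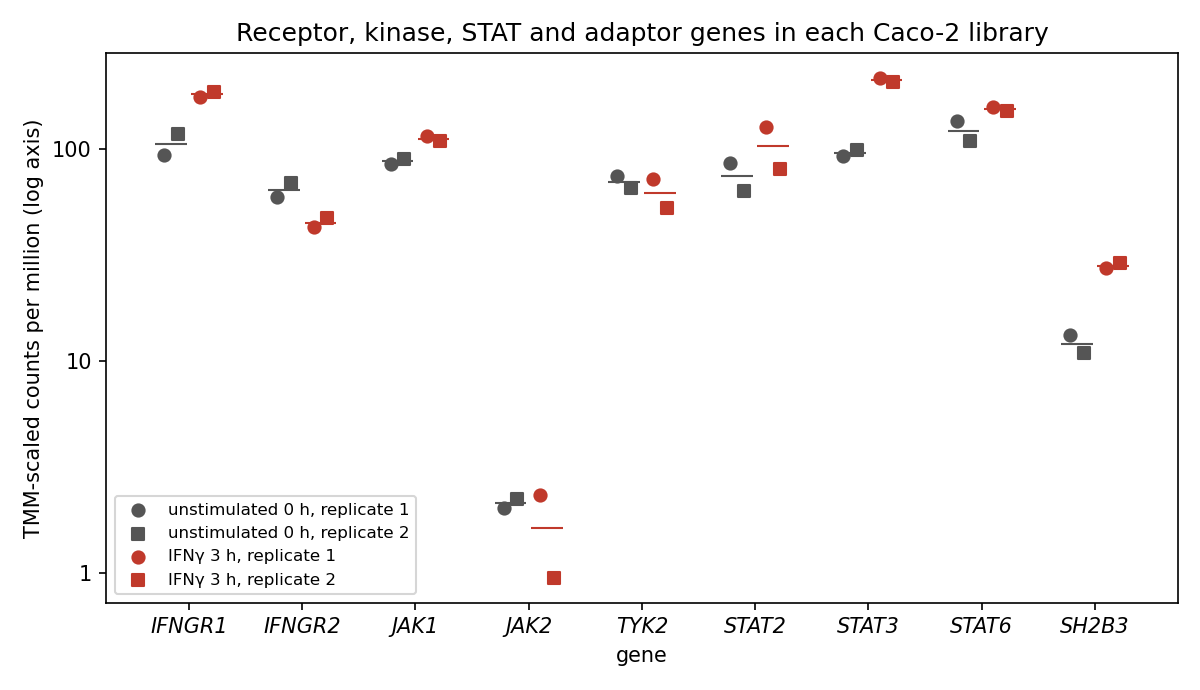
TMM-scaled CPM (log axis) of the 9 genes in each of the 4 libraries, with circles for replicate 1, squares for replicate 2 and a line at the mean of each condition (n = 2). STAT3, SH2B3, IFNGR1, JAK1 and STAT6 lay higher in both IFNγ libraries than in both controls, as did 31.6% of all tested genes. IFNGR2 lay lower in both, as did 30.8%, and JAK2 lay between 0.953 and 2.33 CPM.

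None of the 3 Janus kinases passed the test. JAK1 (ENSG00000162434, chromosome 1, 65298906 to 65533437, minus strand), the kinase of IFNGR1, had 85.0 and 89.7 CPM in the unstimulated libraries and 115 and 108 CPM after IFNγ. The conditions did not overlap, but 62.4% of all tested genes did not overlap either. Its log2 fold change was 0.36 (95% interval 0.09 to 0.62, edgeR adjusted p = 0.0672). With the GC and length trend removed it was 0.56 and passed (adjusted p = 0.021), and with upper quartile scaling it was 0.40 and passed (adjusted p = 0.0418). It did not pass with DESeq2 (log2 fold change 0.35, adjusted p = 0.118), with the other scalings or with the other filters on low counts. Of its exonic bases 4.91% are shared with the noncoding gene LINC01359 on the same strand.

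JAK2 (ENSG00000096968, chromosome 9, 4984390 to 5129948, plus strand), the kinase of IFNGR2, was read by few fragments. Its counts were 21 and 16 without IFNγ and 24 and 7 after IFNγ, or 2.04, 2.24, 2.33 and 0.953 CPM. The highest and the lowest value were both from IFNγ libraries. The 95% interval of its log2 fold change of -0.32 ran from -1.43 to 0.80 (edgeR adjusted p = 0.677), or 0.370 to 1.74 of the control level, and this depth did not show a direction. The sign of the estimate turned when the IFNγ library of replicate 2 was left out (0.11) and when the GC and length trend was removed (0.21), and JAK2 had the lowest GC content of the 9 genes, 36.6%.

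TYK2 (ENSG00000105397, chromosome 19, 10461209 to 10491284, minus strand), a kinase of the type I interferon receptor, had 74.3 and 65.4 CPM before and 71.7 and 52.7 CPM after IFNγ. The conditions overlapped, and replicate 1 was the higher in both. The log2 fold change was -0.17 (95% interval -0.57 to 0.23, edgeR adjusted p = 0.531), and it was 0.014 without the IFNγ library of replicate 2 and -0.33 with the GC and length trend removed. TYK2 had the highest GC content of the 9 genes, 60.9%.

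**Figure D2:**
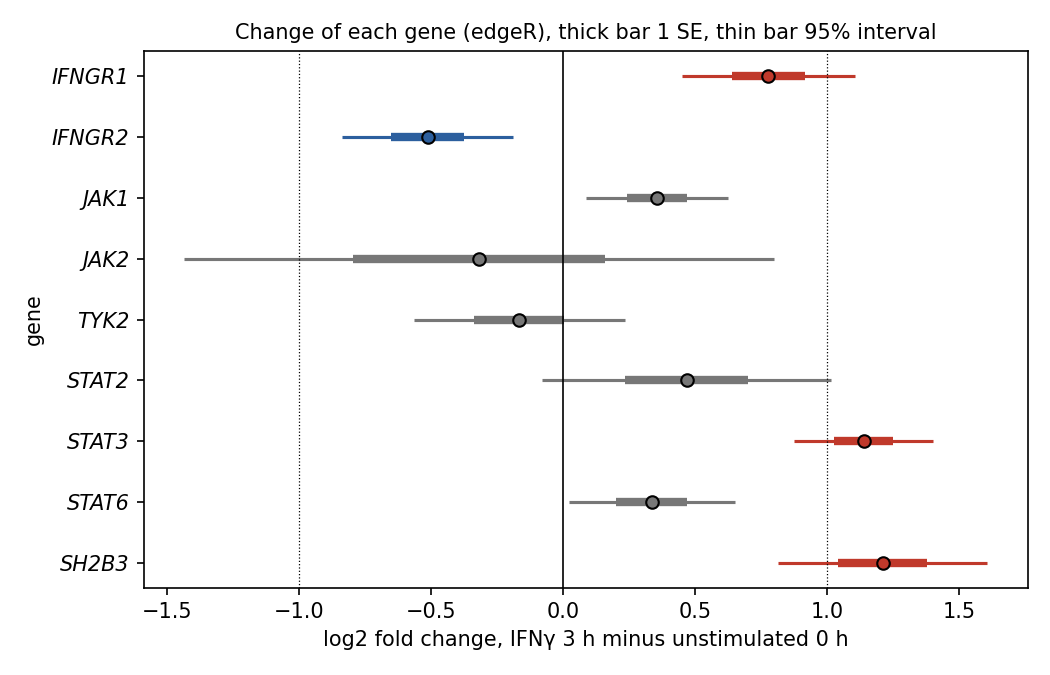
Log2 fold change (IFNγ 3 h minus unstimulated 0 h) of each gene from edgeR, with 1 standard error as a thick bar and the 95% interval as a thin bar, dotted lines at the fold threshold of 1, red for genes that rose, blue for the gene that fell and gray for genes that did not pass. The interval of JAK2, from -1.43 to 0.80, was the widest.

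Among the 3 STAT genes, STAT3 passed and STAT2 and STAT6 did not. STAT3 (ENSG00000168610, chromosome 17, 40465342 to 40540558, minus strand), which carries signals of IL-6 family cytokines, had 955 and 705 counts before and 2222 and 1509 after IFNγ. On the CPM scale this was 92.6 and 98.5 against 215 and 205, and the libraries of one condition were close together while the conditions were far apart. The means of 95.6 ± 4.14 and 210 ± 7.11 CPM (SD, n = 2) gave a log2 fold change of 1.14 (standard error 0.11, 95% interval 0.88 to 1.40, edgeR adjusted p = 0.00152). The lower end of that interval was under the fold threshold of 1. In absolute log2 fold change STAT3 exceeded 92.8% of all tested genes.

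STAT2 (ENSG00000170581, chromosome 12, 56735381 to 56753987, minus strand), the STAT that joins IRF9 in type I interferon signaling, had 86.0 and 63.3 CPM in the unstimulated libraries and 126 and 80.4 CPM after IFNγ. Replicate 1 was the higher in both conditions, and unstimulated replicate 1 was above IFNγ replicate 2. The log2 fold change was 0.47 with a 95% interval of -0.08 to 1.02 (edgeR adjusted p = 0.199). The value moved with each library. It was 0.73 without IFNγ replicate 2, 0.71 without unstimulated replicate 1, 0.28 without unstimulated replicate 2 and 0.089 without IFNγ replicate 1. With all 4 libraries and no filter on low counts it was 0.49 and passed (edgeR adjusted p = 0.0114). In that fit edgeR took the spread of each gene from the genes as a whole. The wide spread between the STAT2 libraries was thus not used there. IRF9, the partner of STAT2, had 2.13 and 0.978 CPM before and 6.59 and 1.91 CPM after IFNγ (log2 fold change 1.43, edgeR adjusted p = 0.151), again with overlapping conditions and the higher values in replicate 1, and it is named here after its values had been seen.

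STAT6 (ENSG00000166888, chromosome 12, 57489191 to 57525922, minus strand), the STAT of IL-4 and IL-13, had 135 and 109 CPM before and 157 and 151 CPM after IFNγ. Both IFNγ libraries were above both controls, as for 31.6% of all tested genes, but the controls differed from each other by more than the lower IFNγ library exceeded the higher control. Its log2 fold change of 0.34 (95% interval 0.02 to 0.65) did not pass after adjustment (edgeR adjusted p = 0.12), and it was 0.21 with the GC and length trend removed. STAT2 and STAT6 lie on the same strand of chromosome 12 with 735203 bases between them, and SH2B3 lies on the other strand of the same chromosome.

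The ratio of STAT3 to STAT6 reads was 0.689 and 0.904 in the unstimulated libraries and 1.37 and 1.36 after IFNγ. That of STAT3 to STAT2 reads was 1.08 and 1.56 before and 1.71 and 2.55 after. For both ratios the stimulated libraries were above the controls (exact permutation p = 0.333 for each, the smallest possible, 4 ratios in all), with a smaller gap for STAT3 to STAT2. Per kilobase of exon, STAT3 made up 23.0% and 28.8% of the summed level of the 3 STAT genes before and 35.4% and 38.5% after IFNγ, while the share of STAT6 was 51.3% and 48.9% before and 39.6% and 43.4% after. The share of STAT2 overlapped between the conditions. Among the kinases the ratio of JAK1 to TYK2 reads was 1.14 and 1.37 before and 1.60 and 2.06 after.

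**Figure D3:**
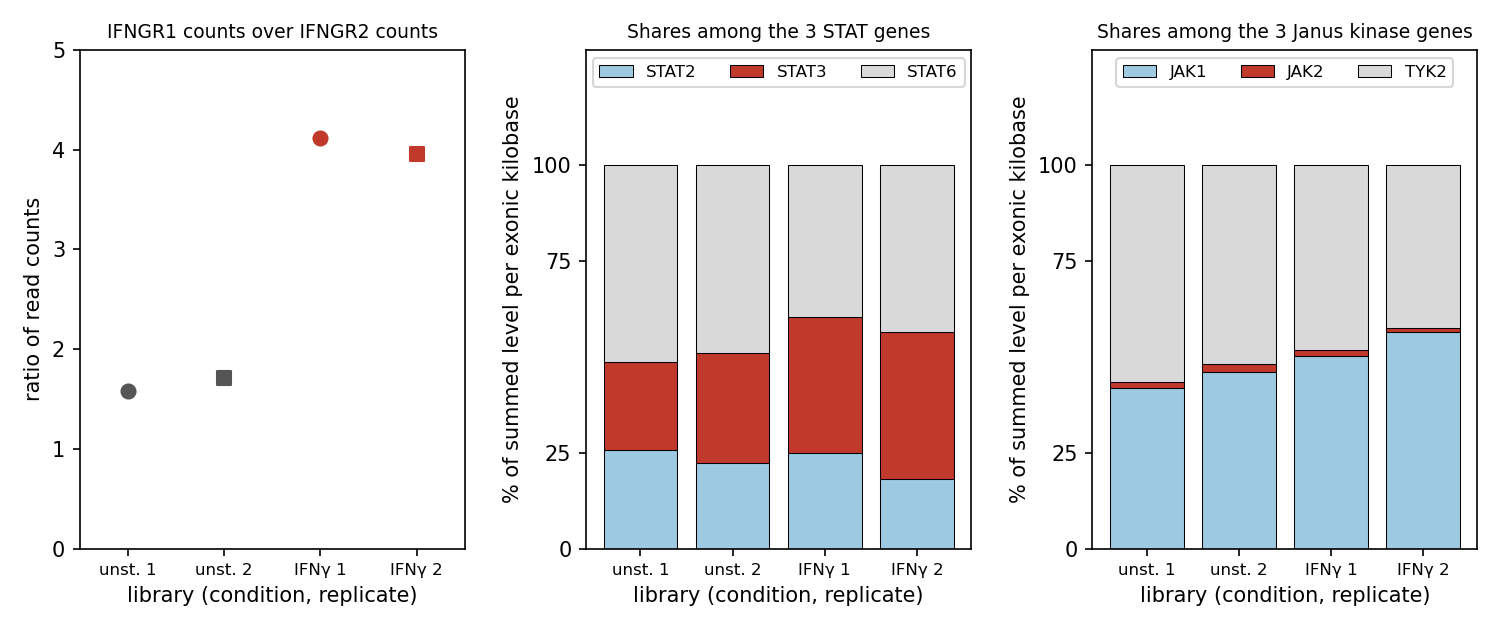
Left, ratio of IFNGR1 to IFNGR2 read counts in each library. Middle and right, share (%) of each STAT gene and each Janus kinase gene in their summed level per kilobase of exon, by library. The receptor ratio was 1.58 and 1.71 in the unstimulated libraries and 4.12 and 3.96 in the IFNγ libraries, and JAK2 made up 0.829% to 1.91% of the kinase sum.

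SH2B3 (ENSG00000111252, chromosome 12, 111843727 to 111889427, plus strand), the adaptor that binds JAK2 through its SH2 domain, had the largest absolute log2 fold change of the 9 genes. Its counts were 136 and 78 before and 282 and 212 after IFNγ, or 13.2 and 10.9 CPM against 27.3 and 28.8 CPM. Each stimulated library held over 2 times the CPM of either control, and the libraries of one condition were close. The means were 12.0 ± 1.62 and 28.1 ± 1.07 CPM (SD, n = 2), a log2 fold change of 1.21 (standard error 0.17, 95% interval 0.81 to 1.61, edgeR adjusted p = 0.00427). It exceeded 93.8% of all tested genes in absolute log2 fold change, and it was 1.06 with the GC and length trend removed. Of its exonic bases 1.21% are shared with ATXN2 on the opposite strand.

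Per kilobase of exon the receptor chains were the most abundant of the 9 transcripts in unstimulated cells, IFNGR1 with 29.7 ± 4.78 and IFNGR2 with 25.2 ± 2.69 CPM per kilobase (SD, n = 2), and these levels overlapped between the libraries. STAT6 followed with 16.7 ± 2.48 CPM per kilobase. STAT3 (8.53 ± 0.369), TYK2 (8.20 ± 0.740), STAT2 (8.02 ± 1.73) and JAK1 (6.63 ± 0.253) were next in CPM per kilobase, and neighbors in this stretch of the order overlapped. SH2B3 had 2.11 ± 0.284 and JAK2 had 0.270 ± 0.0177 CPM per kilobase, each clear of its neighbor. After IFNγ, IFNGR1 stood first at 50.9 ± 2.06, ahead of STAT6 at 21.1 ± 0.608, STAT3 at 18.8 ± 0.635 and IFNGR2 at 17.7 ± 1.20 CPM per kilobase, and the last pair overlapped. IFNGR2 thus moved from the second to the fourth place. STAT2 had 11.1 ± 3.48, JAK1 8.48 ± 0.350 and TYK2 7.30 ± 1.57 CPM per kilobase with overlapping neighbors, and SH2B3 (4.92 ± 0.187) and JAK2 (0.207 ± 0.123) kept the last places. With the length of the canonical transcript in place of all exons, a setting added after the data were seen, JAK2 was still the lowest and IFNGR1 the highest in both conditions, but STAT3 stood above STAT6 after IFNγ.

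**Figure D4:**
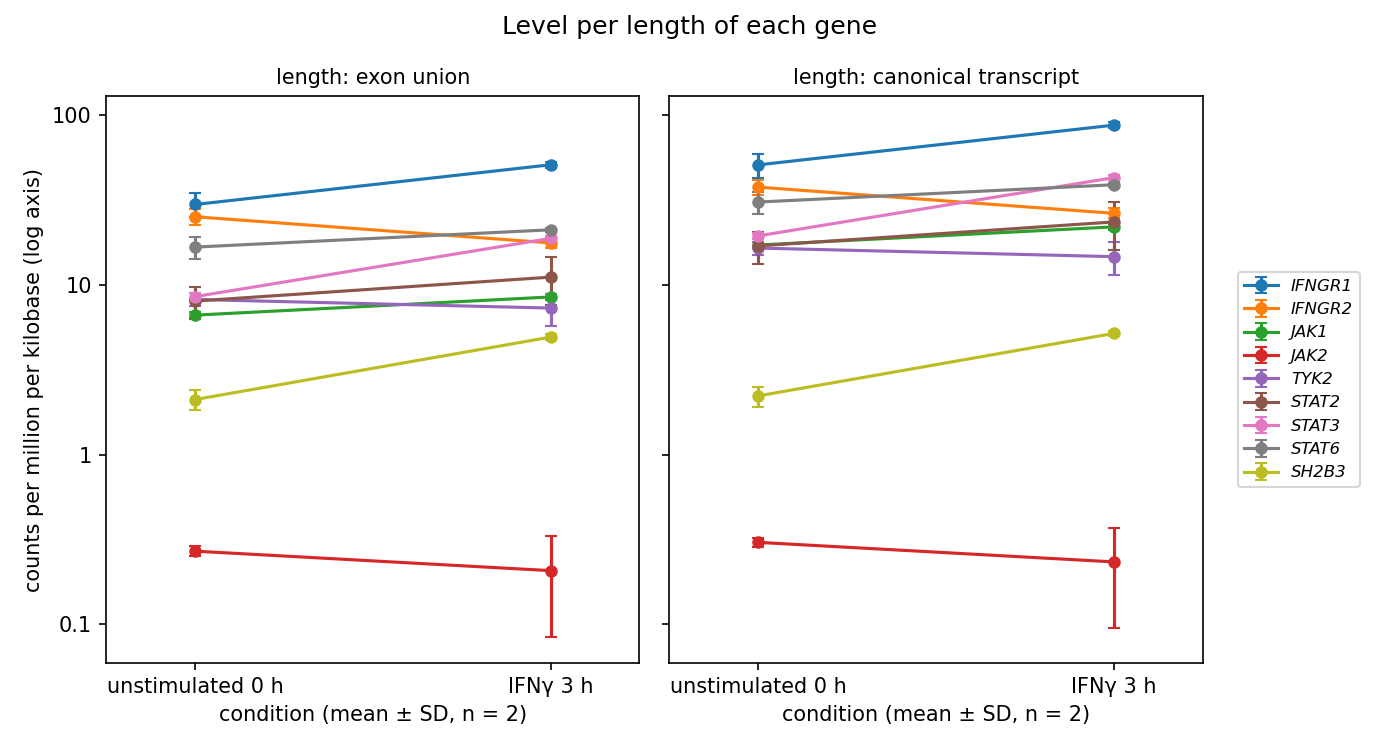
Level of each gene in CPM per kilobase (log axis, mean ± SD, n = 2) in unstimulated and IFNγ libraries, with length as all annotated exons (left) or as the canonical transcript (right). IFNGR1 was the highest and JAK2 the lowest in both conditions with either length, and the line of IFNGR2 falls while those of IFNGR1, STAT3 and SH2B3 rise.

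The 3 tested genes with the pattern most like that of STAT3 over the 4 libraries, by Euclidean distance of centered log2 CPM among 2789 genes with a mean log2 CPM within 1 of its own, were TMEM37 (distance 0.073), CDX2 (0.0992), a transcription factor of intestinal identity, and ENC1 (0.104). For SH2B3 they were TIFA (0.103), an adaptor of TRAF6 signaling, PSMG3 (0.11), a proteasome assembly factor, and NUAK2 (0.112), a kinase, among 4328 such genes. With 4 libraries in 2 conditions, any gene with a like fold change and little spread comes out near, and all 6 had log2 fold changes between 1.11 and 1.20.

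Other genes of the pathway were taken from lists written by function. Of 20 receptor chains for interferons and related cytokines 15 were tested, and 1 rose, 3 fell and 11 did not pass (median log2 fold change -0.02). IL4R, the IL-4 receptor chain that recruits STAT6, had 31.8 and 33.3 CPM before and 111 and 120 CPM after IFNγ (log2 fold change 1.83, edgeR adjusted p = 0.000466). IL6ST, the shared chain gp130 of the IL-6 family, whose main STAT is STAT3, had 241 and 290 CPM before and 141 and 120 CPM after (log2 fold change -1.02, edgeR adjusted p = 0.00412). STAT6 itself did not pass, and STAT3 rose while IL6ST fell.

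Of the other Janus kinase and STAT genes, JAK3 had 0 counts in every library. At 95% confidence this allows an expected count of at most about 3 in each. STAT4 had too few counts to be tested (4 to 14 in a library). STAT5A rose from 8 and 3 counts to 21 and 21 (log2 fold change 1.93, standard error 0.49, edgeR adjusted p = 0.0329), while its near-identical neighbor STAT5B had 55.2 and 43.6 CPM before and 47.1 and 54.8 CPM after (log2 fold change 0.04, edgeR adjusted p = 0.89). Reads shared by these copies may have been split or dropped. With DESeq2 STAT5A did not pass for want of an adjusted p-value, so this is not a failed test. DESeq2 gave none to JAK2, a gene of few counts, and the mean CPM of STAT5A was lower still. Its rise also did not pass when any of the 4 libraries was left out.

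All 10 partners and coactivators of STATs were tested, and 2 rose, 2 fell and 6 did not pass (median log2 fold change 0.23). IRF1 is given above. NMI, a protein that binds STATs, rose from 4.85 and 6.57 CPM to 14.3 and 15.8 CPM (log2 fold change 1.41, edgeR adjusted p = 0.00644). KPNA5, an importin that carries phosphorylated STAT dimers into the nucleus, fell from 29.97 and 31.99 CPM to 15.9 and 10.9 CPM (log2 fold change -1.19, edgeR adjusted p = 0.00792).

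Of 18 inhibitors of the pathway 16 were tested, and 2 rose, 4 fell and 10 did not pass (median log2 fold change 0.25). PTPN1, a phosphatase that acts on JAK2 and TYK2, rose from 65.3 and 69.2 CPM to 160 and 185 CPM (log2 fold change 1.36, edgeR adjusted p = 0.00127). PIAS1, a SUMO ligase that inhibits STAT binding to DNA, fell from 43.9 and 39.0 CPM to 16.6 and 16.9 CPM (log2 fold change -1.31, edgeR adjusted p = 0.00225). The inhibitors that passed thus went in both directions.

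Of 13 SH2B family members and receptor adaptors, all tested, 2 rose, 3 fell and 8 did not pass (median log2 fold change -0.09), and none was past the fold threshold. SHC1, an adaptor toward RAS, had a log2 fold change of 0.78 (edgeR adjusted p = 0.00515), CBLB, a ubiquitin ligase, -0.98 (adjusted p = 0.01) and GAB2, a docking protein, -0.58 (adjusted p = 0.0149). SH2B1, a relative of SH2B3 that promotes JAK2 activity and is named after its values had been seen, had 91.1 and 64.4 CPM before and 54.0 and 43.6 CPM after (log2 fold change -0.67, edgeR adjusted p = 0.0488). Its direction was opposite to that of SH2B3, and SH2B2 had at most 15 counts in a library. The shares past the test in these 5 lists were 26.7%, 50%, 40%, 37.5% and 38.5%, against 20.0% of all tested genes, from lists of 2 to 16 tested genes written with earlier results of these libraries known. With the GC and length trend removed, 3 receptor chains, 4 inhibitors and 4 adaptors passed, against 4, 6 and 5 before. Partners and coactivators stayed at 4 and the other Janus kinase and STAT genes at 1. Over all tested genes 2367 of 14518 passed with the trend removed, against 2963 of 14820 before.

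**Figure D5:**
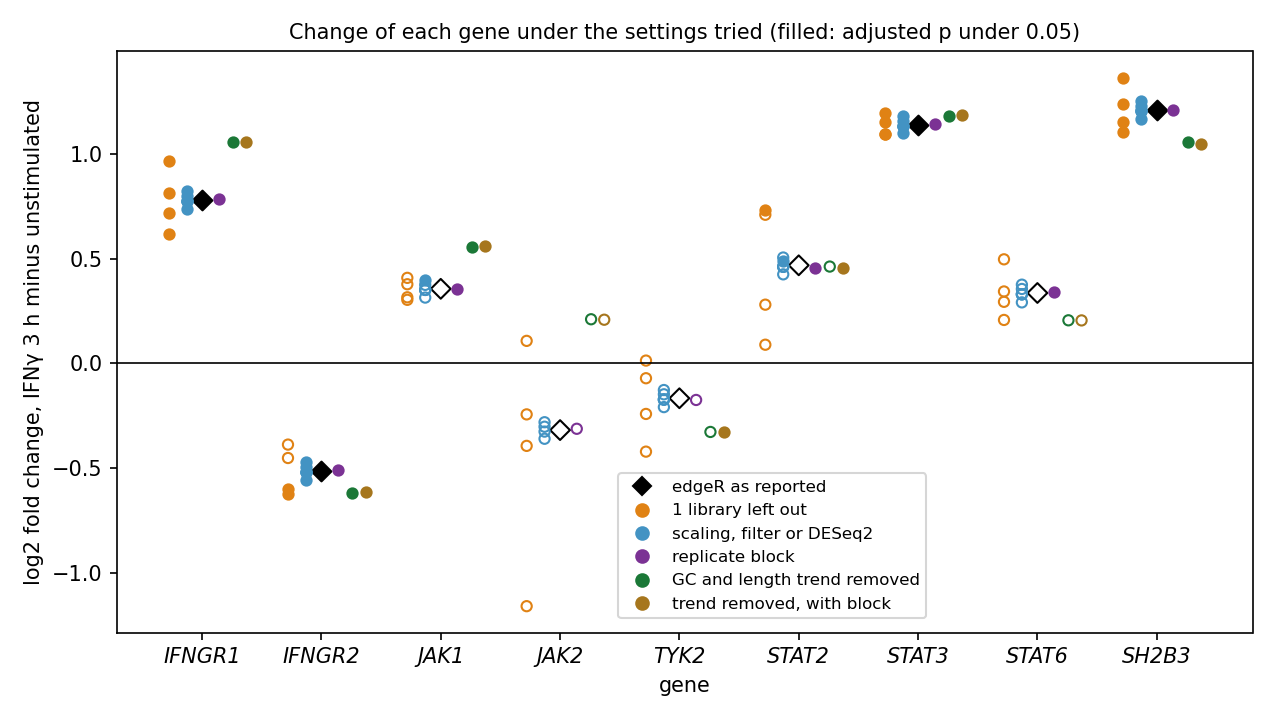
Log2 fold change of each gene under each setting tried, filled where the adjusted p-value was under 0.05, with a black diamond for the values of the text orange for fits without 1 library, blue for other scalings, filters or DESeq2, purple for the replicate block, green for the GC and length trend removed and brown for both together. STAT3, SH2B3 and IFNGR1 stayed positive and filled under every setting shown, IFNGR2 stayed negative, and JAK2 and TYK2 crossed 0.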

How the data were processed

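Deposited were unnormalized counts, whole reads for each Ensembl gene as made by the authors, for 4 Caco-2 libraries (2 unstimulated, 2 with IFNγ), with replicates not pooled. TruSeq libraries were made from 1 µg of RNA, and the submitters' processing notes name HISAT 0.5.1 and HTSeq 0.6.1p1. The genome build, annotation and strand setting for these libraries are not given in the sources used here, so overlapping genes on opposite strands are uncertain. Nothing in the labels says that replicates came from separate cultures, so p-values measure the spread between these libraries. With 7171455 to 10365346 counts a library, 1 CPM was 7.17 to 10.4 counts, and precision was limited by 2 libraries per condition.

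Counts were filtered by edgeR's default, scaled by TMM and tested with the quasi-likelihood method of edgeR 4.0.16 (R 4.3.3), without a block. Standard errors were the log2 fold change over the square root of F, and 95% intervals used the t quantile at the total degrees of freedom (7.34). Gene positions, exon lengths and GC content (longest transcript) came from GENCODE 44 on GRCh37, which may differ from the annotation used for counting. Promoters came from RefSeq windows on GRCh38.p14, which matched all 9 genes, and these coordinates are not interchangeable with those on GRCh37. The alternatives were other scalings, other filters, DESeq2 1.42.0, the replicate block, removal of a loess trend (span 0.5) of GC content and length, and each library left out. The fits were tested on simulated data. The members, lists and tests were chosen with earlier results of these data known. Besides the 9 genes, those past both thresholds were named from each list, or else up to 3 with the smallest adjusted p-value, and for each called gene its 3 nearest patterns. Some pathway genes are not reported here. Protein sequences were not used here.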

Additional observations from a re-analysis of the deposited data

How the results depend on the processing

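STAT3, SH2B3 and IFNGR1 kept their direction and passed under each alternative run, and IFNGR2 did so except without unstimulated replicate 2 or IFNγ replicate 1. JAK1 passed at a log2 fold change of 0.40 with upper quartile scaling and 0.56 with the GC and length trend removed. It did not pass with the other scalings, the other filters or DESeq2. STAT2 passed at 0.49 with no filter on low counts, where edgeR took the spread of each gene from the genes as a whole. JAK2 turned to 0.21 with the trend removed. With at least 10 counts in every library, STAT5A, with 8 and 3 counts in the controls, was left out by the filter. The list of other Janus kinase and STAT genes thus had 0 past the test under that setting, and it also had 0 with DESeq2. JAK2 was left out by the same filter, and DESeq2 gave it no adjusted p-value. STAT5A, with a lower mean CPM than JAK2, had no adjusted p-value with DESeq2 either. Removing the trend moved the split of calls at both thresholds from 427 higher and 652 lower to 423 higher and 319 lower, and upper quartile scaling changed it to 477 and 586. With canonical transcript length, chosen after seeing the data, JAK1 took rank 5 and TYK2 rank 7 in unstimulated cells, and STAT3 rank 2 and STAT6 rank 3 after IFNγ. The causes were not tested.

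The replicate number as a block was an alternative only, because no source says that a number marks a shared culture or day. Deviations of same-numbered libraries correlated at r = 0.415, a hint from the data. With the replicate block 7 of the 9 genes and 5488 of the 14820 tested genes passed, against 4 and 2963 without the block. In the lists 7 partners and coactivators and 9 SH2B family members and adaptors passed. Among the 9 genes JAK1 (0.36), STAT2 (0.46) and STAT6 (0.34) now passed too. With the block and the trend removed together 7 of the 9 genes and 5280 of the 14518 tested genes passed. In the lists 8 receptor chains and 8 partners passed. JAK1 (0.56), TYK2 (-0.33) and STAT2 (0.45) passed, and JAK2 was 0.21 and did not.

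When 1 library was left out at a time, the lone library of an arm being assumed to vary like the other arm, 3 to 5 of the 9 genes passed and 2 to 2 were called. Over all tested genes 1768 to 3024 passed and 903 to 1529 were called. The counts were 2 to 4 for receptor chains, 0 to 0 for other Janus kinases and STATs, 4 to 6 for partners, 4 to 6 for inhibitors and 2 to 5 for adaptors. The log2 fold changes ran from 0.62 to 0.96 for IFNGR1, -0.62 to -0.39 for IFNGR2, 0.30 to 0.41 for JAK1, -1.16 to 0.11 for JAK2, -0.42 to 0.014 for TYK2, 0.089 to 0.73 for STAT2, 1.09 to 1.20 for STAT3, 0.21 to 0.50 for STAT6 and 1.10 to 1.36 for SH2B3. JAK2 (0.11) and TYK2 (0.014) changed sign without IFNγ replicate 2. The alignment of member proteins was not run. With 2 libraries per condition and 7 to 24 counts of JAK2, small changes were not detectable.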
